A study of Arabidopsis thaliana with 17 samples.

Results

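The NF-YA subunits of Arabidopsis thaliana are encoded by 10 genes, NF-YA1 to NF-YA10, which were taken by their locus identifiers out of the 37336 features of the deposited tables. Each of the 10 had a row in both tables used here and reads in each of the 8 libraries read from them. NF-Y is a transcription factor made of an NF-YA, an NF-YB and an NF-YC subunit. The NF-YB and NF-YC subunits pair through histone-fold domains, and NF-YA joins the pair and recognises the CCAAT box in DNA. In plants each subunit is encoded by a gene family, and the microRNA family miR169 directs the cleavage of many NF-YA transcripts. NF-YA2 is the subunit that the study's title sets against the long non-coding RNA (lncRNA) BAMBOO, and NF-YA2 and its closest relative NF-YA10 are known for a role in root architecture.

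The study deposited 17 samples from 14-day-old plants, and 8 of them, all RNA-seq of whole roots under the mock condition, are described here. The bamboo group (2 libraries, replicates 2 and 3) carries the genotype bamboo, which the submitters call a mutant and which the name of its table calls KD; the labels do not state how BAMBOO was altered, and its own level was not analysed here. Its wild type, labelled Col-0-b (3 libraries), has the genotype Col-0 and was deposited in the same table as bamboo. A further wild-type set, Col-0 (3 libraries), has the same genotype and came in a table of its own. The NF-YA2 transgenic roots and the libraries from immunoprecipitation were not analysed here. Nothing in the labels says whether replicates were grown apart, so p-values measure the spread between these libraries, which may be technical.

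Depth was 22755962 and 24333119 reads in bamboo, 16963843 to 20743588 in Col-0-b and 13637179 to 21206367 in Col-0. The 10 root markers chosen had reads in every library. Their summed level, 14850 to 16070 CPM (counts scaled to library size) in bamboo, 13170 to 14090 CPM in Col-0-b and 14810 to 15170 CPM in Col-0, was nearly all BGLU23, an abundant root beta-glucosidase. The other 9, among them SHR, SCR, CASP1 and WOX5, summed to 342.3 to 347.5 CPM in bamboo, 325 to 344 CPM in Col-0-b and 317 to 341 CPM in Col-0. In bamboo 6 of the 10 root markers had a negative log2 fold change and 4 a positive, with a median of -0.14. Limma called none, where it called 0.133% of all tested genes, and 4 had an unadjusted p under 0.05, against 16.8% of all tested genes. Of these 4, PLT2 and RHD6 were lower in bamboo and CASP1 and MYB36 were higher. The 6 photosynthetic markers of shoot tissue were present at 117 to 124 CPM in bamboo, 88.8 to 163 CPM in Col-0-b and 76.2 to 87.0 CPM in Col-0, and none was at 0. All 6 had a positive log2 fold change in bamboo (median 0.16), where 49.9% of all tested genes did. Limma called none of the 6, where it called 0.133% of all tested genes. The sign depended on the scale. By the mean of normalized counts, RBCS1A, CAB1, LHCB2.1 and LHCB3 were lower in bamboo than in Col-0-b, and RCA and PSBO1 were higher. Col-0-b replicate 1 was the highest of the 5 bamboo and Col-0-b libraries for 5 of the 6. In bulk roots, fewer cells of a type and less RNA per cell cannot be told apart.

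In bamboo roots no NF-YA gene passed the test against Col-0-b. Levels are normalized counts (reads divided by the authors' size factor for each library), and the test was limma's moderated test on log2(normalized count + 1) over 20274 genes with Benjamini-Hochberg adjustment at 0.05. It called 0 of the 10 NF-YA genes, where it called 0.133% of all tested genes (27 genes, 0.0691% higher and 0.0641% lower), so that a count of 0 among 10 is also what the background share would give. That share rests on few libraries: it was 9.66% without bamboo replicate 3, 0.0495% without Col-0-b replicate 1, 0.0595% without Col-0-b replicate 3 and 0.154% without bamboo replicate 2, and the count of NF-YA genes called was 0 in each. At an unadjusted p under 0.05 the count was again 0 of 10, against 16.8% of all tested genes. Counted on reads recovered from the same values, edgeR called 0 of 10, against 0.138% of all tested genes. DESeq2 called 0 of the 9 that it gave an adjusted p, all but NF-YA5, against 1.51% of all tested genes. Log2 fold changes are given as bamboo minus its wild type, a scale that understates the change of low genes.

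**Figure D1:**
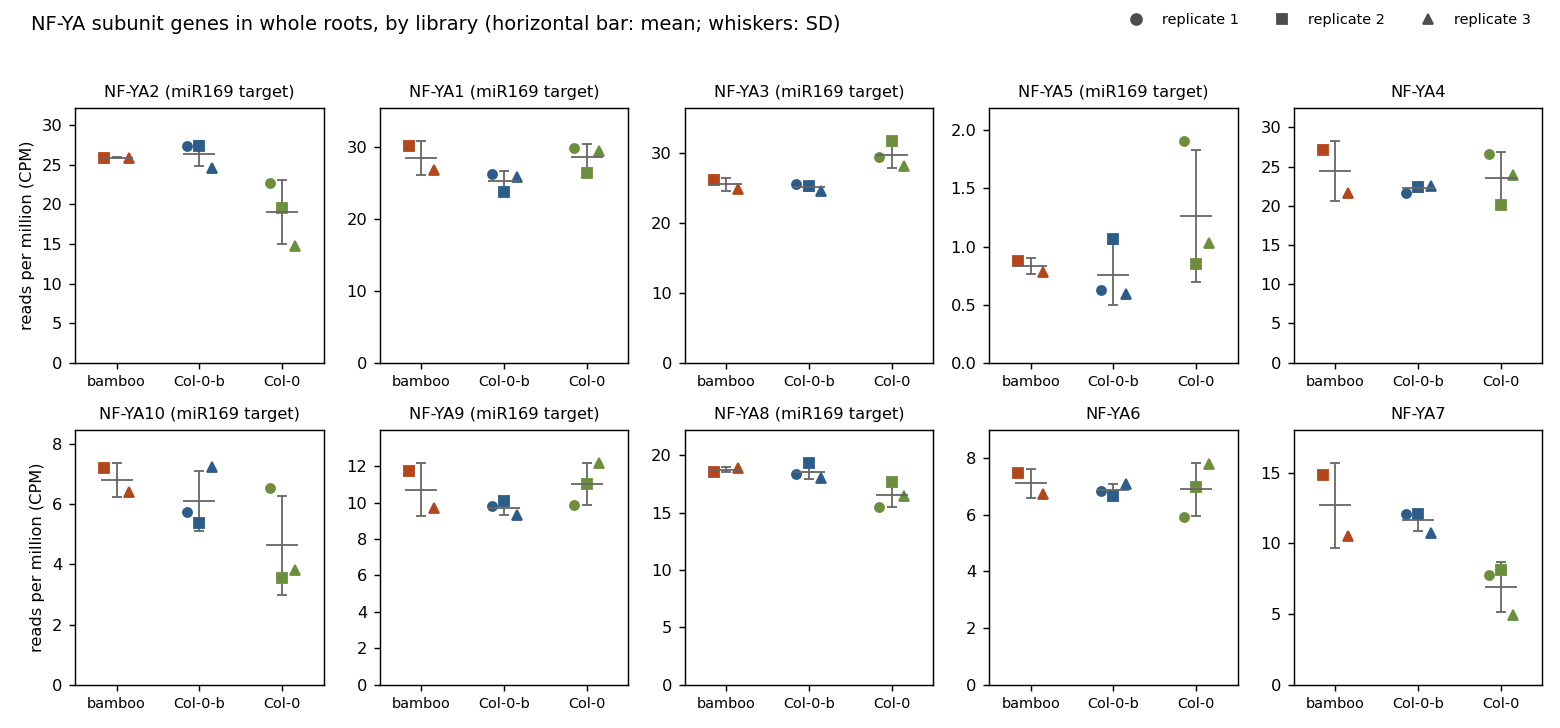
Level of each NF-YA gene in CPM (counts scaled to library size, linear axis from 0) in the 2 bamboo, 3 Col-0-b and 3 Col-0 libraries. Points are libraries, with the replicate number as their shape, horizontal bars are group means and whiskers are SD; the 2 rows hold closest relatives above each other, and Col-0 comes from a table made separately. The bamboo and Col-0-b points overlap for every gene but NF-YA1. The Col-0 points lie below those of Col-0-b for NF-YA2, NF-YA7 and NF-YA8, where 26% of all tested genes did. They lie above for NF-YA1 and NF-YA3, where 26.9% of all tested genes did.

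NF-YA2 and NF-YA10, the pair linked to root architecture and both known targets of miR169, did not differ from the wild type beyond the spread between libraries. NF-YA2 (AT3G05690) had 548 and 535 normalized counts in bamboo, against 568, 572 and 509 in Col-0-b. Both bamboo values lie inside the Col-0-b range. On the log2 scale it differed by -0.02 (SE 0.09, limma adjusted p = 0.936), and the 95% interval ran from 0.863-fold to 1.13-fold. NF-YA10 (AT5G06510), known also for a role in leaf growth, had 153 and 132 normalized counts in bamboo, against 119, 112 and 150.1 in Col-0-b. The bamboo libraries are above 2 of the 3 wild-type libraries, while Col-0-b replicate 3 reaches their level. The log2 fold change was 0.17 (SE 0.16, adjusted p = 0.616, interval 0.883-fold to 1.44-fold).

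NF-YA1 was the member with the lowest p and the only member of the 10 whose bamboo libraries lay apart from those of Col-0-b. NF-YA1 (AT5G12840), which together with NF-YA9 is known for roles in gametogenesis and embryogenesis, had 640.3 and 553 normalized counts in bamboo, against 545, 498 and 536 in Col-0-b. Bamboo replicate 3 exceeded the highest wild-type library only slightly. The bamboo mean was 596 ± 62.1 (SD, n = 2), and that of the wild type Col-0-b was 526 ± 24.9 (SD, n = 3). The difference of 0.18 on the log2 scale (SE 0.09, limma adjusted p = 0.359, interval 0.981-fold to 1.30-fold) missed the threshold. Among all tested genes, 34.6% had libraries that did not overlap between the 2 groups, so 1 of 10 is below that background. NF-YA9 (AT3G20910) had 249 and 200.0 normalized counts in bamboo, against 203, 211 and 193 in Col-0-b, with the upper bamboo library above the wild type and the other inside its range (log2 fold change 0.14, SE 0.13, adjusted p = 0.597, interval 0.910-fold to 1.34-fold).

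NF-YA3 and NF-YA8, a pair with redundant functions in the early embryo and again targets of miR169, both varied little over the 5 libraries. NF-YA3 (AT1G72830) had 555 and 511 normalized counts in bamboo, against 529.7, 528 and 508 in Col-0-b. NF-YA8 (AT1G17590) had 394 and 389.8 in bamboo, against 381, 404 and 374 in Col-0-b. For both genes the groups overlap. The log2 fold changes were 0.03 for NF-YA3 (SE 0.09, limma adjusted p = 0.898, interval 0.896-fold to 1.16-fold) and 0.02 for NF-YA8 (SE 0.09, adjusted p = 0.932, interval 0.883-fold to 1.17-fold). With each gene's log2 values set against its own mean, the root-mean-square difference between the 2 genes was 0.044, the smallest of the 45 pairs of members. Genes that vary little give a small difference of this kind, and whether the 2 rise and fall together was not tested.

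NF-YA5, a miR169 target known for its role in drought tolerance, had the fewest reads of the family, and its comparison is the least precise. NF-YA5 (AT1G54160) had 20 and 19 reads in bamboo, against 13, 18 and 12 reads in Col-0-b. These are 18.6 and 16.1 normalized counts in bamboo, against 12.99, 22.2 and 12.2 in Col-0-b, and the bamboo values lie inside the wild-type range. Its log2 fold change of 0.18 had an SE of 0.37 (limma adjusted p = 0.85), and its interval ran from 0.648-fold to 1.97-fold. The summed reads came to 0.828 CPM in bamboo (exact 95% Poisson interval 0.589 to 1.13), against 0.74 CPM in Col-0-b (0.535 to 0.996), intervals that cover counting error only. NF-YA6 (AT3G14020), its closest relative and not a miR169 target, had 158 and 139 normalized counts in bamboo, against 142, 139 and 147 in Col-0-b. Bamboo replicate 2 is above the wild type and bamboo replicate 3 marginally below it (log2 fold change 0.06, SE 0.13, adjusted p = 0.87, interval 0.849-fold to 1.27-fold).

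NF-YA4 and NF-YA7, the other members that miR169 does not target, had the widest gap between the bamboo libraries. NF-YA4 (AT2G34720), a subunit known to act with a bZIP factor in the response to endoplasmic reticulum stress, had 576 and 447 normalized counts in bamboo, against 449.7, 469.6 and 467 in Col-0-b. NF-YA7 (AT1G30500) had 314 and 218 in bamboo, against 249.9, 253 and 223 in Col-0-b. In both genes bamboo replicate 2 exceeds every wild-type library and bamboo replicate 3 is under every one. The log2 fold changes were 0.14 for NF-YA4 (SE 0.11, limma adjusted p = 0.554, interval 0.932-fold to 1.29-fold) and 0.11 for NF-YA7 (SE 0.15, adjusted p = 0.734, interval 0.865-fold to 1.35-fold). A p above the threshold does not show that levels were equal: for NF-YA5 the interval reaches 1.97-fold, and for the other 9 genes the highest upper bound was 1.44-fold (NF-YA10) and the lowest lower bound 0.849-fold (NF-YA6).

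As a family, 9 of the 10 genes had a positive fold change, where 49.9% of all tested genes did, with a median of 0.13 against 0.00 over all tested genes. This tilt came with bamboo replicate 2. Set against the mean of Col-0-b, bamboo replicate 2 had a median log2 difference of 0.28 over the 10 genes and was above it in 9, while bamboo replicate 3 had a median of -0.02 and was above it in 4. Over all tested genes the medians were 0.00 in both libraries. In normalized counts all 10 NF-YA genes were higher in bamboo replicate 2 than in bamboo replicate 3, as were 50.5% of all tested genes; in plain CPM 8 of 10 were, with NF-YA2 and NF-YA8 marginally the other way, against 43.2% of all tested genes. Bamboo replicate 2 was the highest of the 5 libraries for 7 of 10 members, against 30.3% of all tested genes, and bamboo replicate 3 was the highest for none of the 10, against 15.8%. Partner subunits shared this trait: bamboo replicate 2 was above bamboo replicate 3 in 5 of 5 tested NF-YB and 4 of 5 tested NF-YC genes, and the highest of the 5 libraries for 4 of those NF-YB and 3 of those NF-YC genes. The tilt is therefore not shown to be particular to NF-YA. NF-YA7 had the widest gap, with log2 differences of 0.38 and -0.15 from the Col-0-b mean, and NF-YA2 and NF-YA8 differed little in either bamboo library. Without bamboo replicate 2 the family's median fold change was -0.02, with 4 genes above 0 and 6 below.

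By the size of the log2 difference, each root marker stood further from the Col-0-b mean in bamboo replicate 2 than in replicate 3. The share of all tested genes that did so was not computed. Bamboo replicate 2 was the highest of the 5 libraries for 30.3% of all tested genes, and bamboo replicate 3 for 15.8%. The trait is therefore not shown to be particular to these markers. Over the 10 markers the median log2 difference from the Col-0-b mean was -0.18 in bamboo replicate 2, against 0.02 for its partner library. The meristem regulators PLT1 and PLT2 were at -0.61 and -0.64 in bamboo replicate 2, whereas bamboo replicate 3 had 0.12 and -0.15. RHD6, a root hair regulator, was at -0.50 in replicate 2 and -0.26 in replicate 3 of bamboo, and SHR, a radial patterning factor, was at -0.29 in replicate 2 and -0.08 in replicate 3. In the other direction, WOX5, which marks the quiescent centre, was at 0.58 in replicate 2 and 0.10 in replicate 3, and MYB36, a regulator of the endodermal barrier, was at 0.35 in replicate 2 and 0.25 in replicate 3. The part of the root or shoot markers in the NF-YA values was not tested.

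**Figure D2:**
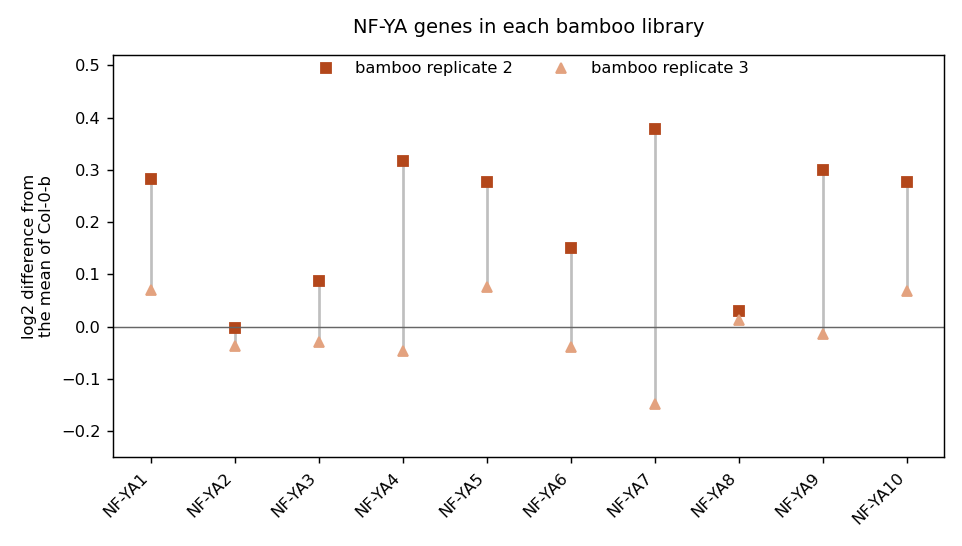
Log2(normalized count + 1) of each NF-YA gene in bamboo replicate 2 (squares) and bamboo replicate 3 (triangles), each minus the mean of the 3 Col-0-b libraries, which is the line at 0. Replicate 2 is above replicate 3 for all 10 genes, and the gap is widest for NF-YA7 (0.38 and -0.15).

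Fold changes of the miR169 targets and of the other members overlapped. The 7 targets (NF-YA1, 2, 3, 5, 8, 9 and 10) had fold changes between -0.02 and 0.18 with a median of 0.14, and NF-YA4, NF-YA6 and NF-YA7 had 0.06 to 0.14 with a median of 0.11. The genes that encode the miR169 precursors were not analysed here.

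The make-up of the family was compared as each gene's share of the NF-YA reads in a library. Transcript lengths were not at hand, so shares and counts are not per length: each gene can be followed across libraries, but no order of transcript abundance between genes is drawn. The 10 genes together took 170 and 152 CPM in bamboo, against 154, 153 and 150.5 CPM in Col-0-b, and 156, 146 and 142 CPM in Col-0. The miR169 targets held 72.7 ± 2.45% of the NF-YA reads in bamboo (n = 2, mean ± SD), beside 73.3 ± 0.314% in Col-0-b (n = 3), and 74.8 ± 0.936% in Col-0 (n = 3). NF-YA2 held 15.2% and 17.0% in bamboo, against 17.7%, 17.8% and 16.3% in Col-0-b, so that bamboo replicate 2 was the lowest of these 5. Its share in Col-0 was 14.6%, 13.4% and 10.4%, below that in each library of the other table. NF-YA7 held 8.71% and 6.93% in bamboo, against 7.81%, 7.88% and 7.15% in Col-0-b. In Col-0 NF-YA7 had a share of 4.98%, 5.56% and 3.45%.

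**Figure D3:**
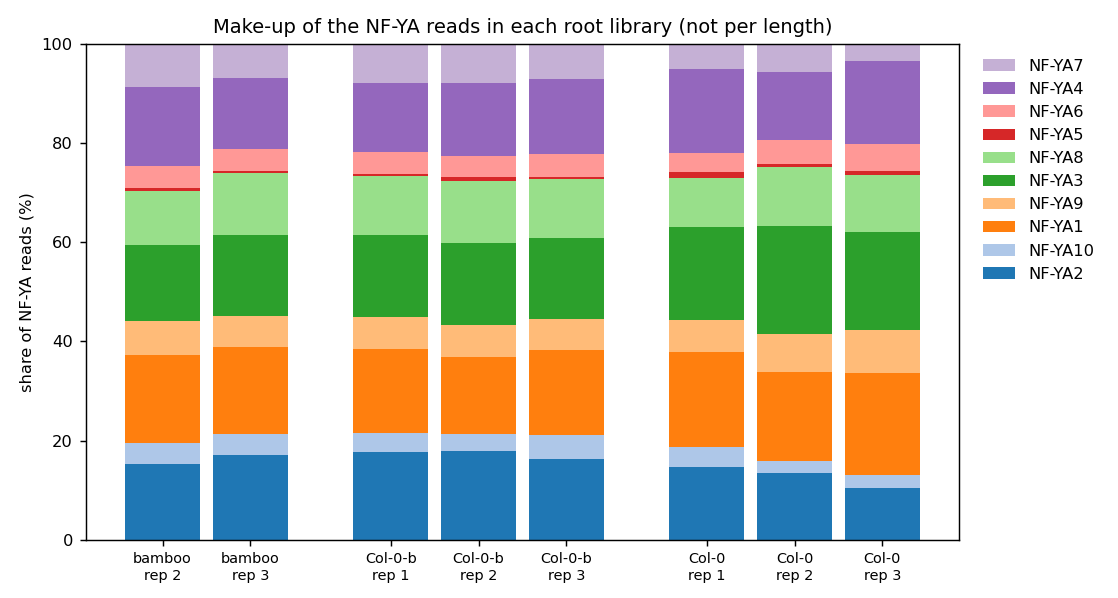
Share of the reads of the 10 NF-YA genes (percent, linear axis from 0, not divided by length) that each gene took in each of the 2 bamboo, 3 Col-0-b and 3 Col-0 libraries; each bar is 1 library and closest relatives are stacked next to each other. The share of NF-YA2 lies between 15.2% and 17.8% in bamboo and Col-0-b and between 10.4% and 14.6% in Col-0.

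The 2 wild-type sets, which share a genotype, were set side by side in CPM without a test, because their tables were made separately. NF-YA2 had 22.8, 19.6 and 14.7 CPM in Col-0, against 27.4, 27.4 and 24.6 CPM in Col-0-b. The ranges do not overlap, and Col-0 replicate 3, also the library with the fewest reads, is the lowest. NF-YA7 had 7.78, 8.11 and 4.91 CPM in Col-0, against 12.1, 12.1 and 10.8 CPM in Col-0-b, again with Col-0 replicate 3 lowest and no overlap. NF-YA8 was also lower in each Col-0 library (15.5 to 17.6 CPM) than in any Col-0-b library (18.1 to 19.3 CPM). In the other direction, NF-YA3 had 28.1 to 31.7 CPM in Col-0 and 24.5 to 25.6 CPM in Col-0-b. For NF-YA1 the values were 26.4 to 29.9 CPM in Col-0 and 23.8 to 26.3 CPM in Col-0-b, nearly touching. The ranges of NF-YA4, NF-YA5, NF-YA6, NF-YA9 and NF-YA10 overlapped. Thus 3 members were apart in one direction, where 26% of all tested genes were, and 2 in the other, where 26.9% were, so the family's shares are near those of all genes.

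Replicates were less alike in Col-0. The median coefficient of variation (SD over mean, in CPM) of the 10 genes was 8.31% in bamboo (n = 2), 4.65% in Col-0-b (n = 3) and 13.7% in Col-0 (n = 3). Over all tested genes the medians were 7.69%, 6.79% and 12.9%. An SD of 2 libraries is imprecise, and the 10 genes ran from 0.252% to 23.7% in bamboo. In Col-0 NF-YA2 varied by 21.2% and NF-YA10 by 35.9%, where counting error alone would give 5.33% and 10.9%. In Col-0-b the same 2 genes varied by 6.14% and 16.2%, where counting alone would give 4.44% and 9.19%.

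Ratios of reads within each pair of closest relatives are free of gene length when followed across libraries. NF-YA2 had 3.58 and 4.04 times the reads of NF-YA10 in bamboo, against 4.77, 5.10 and 3.39 in Col-0-b, and 3.48, 5.53 and 3.87 in Col-0. The 3 groups overlap. The ratio of NF-YA3 to NF-YA8 was 1.41 and 1.31 in bamboo, against 1.39, 1.30 and 1.36 in Col-0-b, and stood at 1.89, 1.80 and 1.70 in Col-0. It is the steadiest of the 5 ratios in the bamboo table, and each Col-0 library lies above that table's range. This restates that in Col-0 NF-YA3 was above and NF-YA8 below Col-0-b. Of all tested genes, 26.9% were above and 26% below in that way, and no such share was computed for ratios. The ratio of NF-YA4 to NF-YA7 was 1.83 and 2.05 in bamboo, against 1.80, 1.86 and 2.095 in Col-0-b, while the Col-0 libraries had 3.42, 2.48 and 4.87. Although both genes had a wide gap between the bamboo libraries, their ratio in bamboo lay inside the wild-type range of the same table. NF-YA1 over NF-YA9 lay between 2.36 and 3.02 in all 8 libraries.

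**Figure D4:**
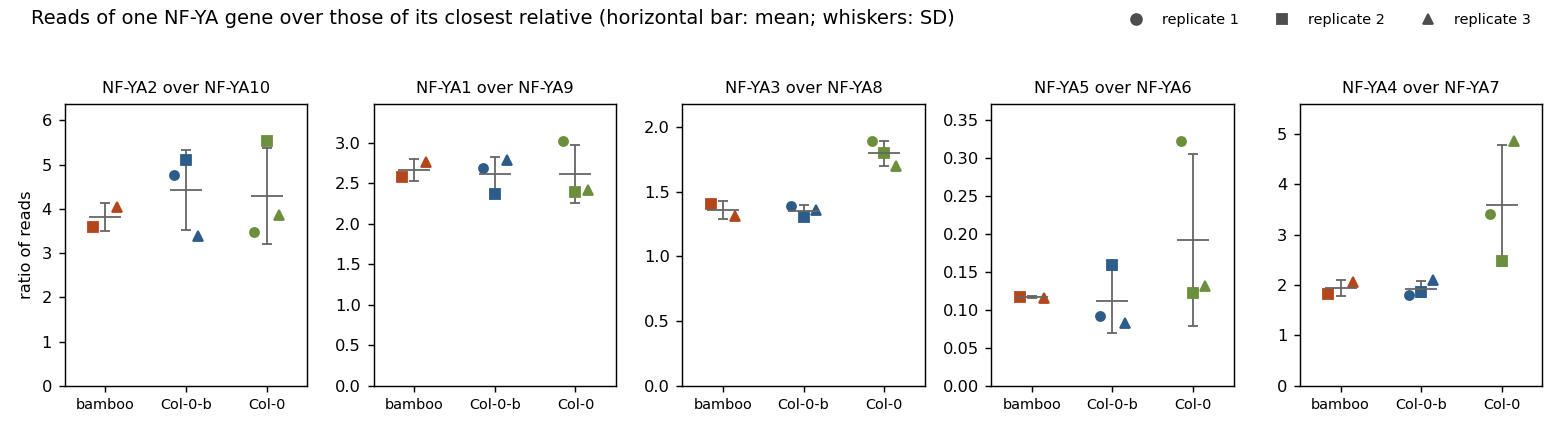
Ratio of the reads of an NF-YA gene to those of its closest relative (linear axes from 0) in the 2 bamboo, 3 Col-0-b and 3 Col-0 libraries; points are libraries, horizontal bars are means and whiskers are SD. The bamboo and Col-0-b points overlap in all 5 panels, and those of Col-0 lie higher for NF-YA3 over NF-YA8 (1.70 to 1.89) and NF-YA4 over NF-YA7 (2.48 to 4.87).

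The partner subunits were counted from the lists NF-YB1 to NF-YB10 and NF-YC1 to NF-YC10. Only 5 of 10 NF-YB and 5 of 10 NF-YC genes reached the minimum level for testing (a normalized count of 10 in at least 2 libraries), while all 10 NF-YA genes did and were above it in every library. NF-YB9, also known as LEC1, a regulator of embryo development, had no reads in bamboo or Col-0-b, where 3 reads in a library, taken as the limit a count of 0 allows, are 2.54 to 3.70 normalized counts. Limma called 0 of the 10 tested partners, where it called 0.133% of all tested genes. Of these partners, 4 had an unadjusted p under 0.05, against 16.8% of all tested genes. The partner with the lowest p among NF-YB genes was NF-YB2, a subunit known from flowering control, with 235 and 187 normalized counts in bamboo, against 149.9, 179.9 and 168 in Col-0-b (log2 fold change 0.34, limma adjusted p = 0.257). Among NF-YC genes it was NF-YC10, known as a partner of a heat and drought response factor, with 291 and 253 in bamboo, against 209.9, 222 and 229 in Col-0-b (log2 fold change 0.30, limma adjusted p = 0.231). Neither pair of groups overlaps. Among the 5 tested NF-YB genes, 1 had both bamboo libraries above all of Col-0-b. Among the 5 tested NF-YC genes, 2 were above and 1, NF-YC3, was below. Over all tested genes 34.6% were apart in either direction. NF-YC3 had 319 and 392 normalized counts in bamboo, against 417, 396 and 461 in Col-0-b (log2 fold change -0.26, limma adjusted p = 0.274). The fold changes had a median of 0.08 over the 5 NF-YB genes and 0.08 over the 5 NF-YC genes, beside 0.13 for NF-YA.

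**Figure D5:**
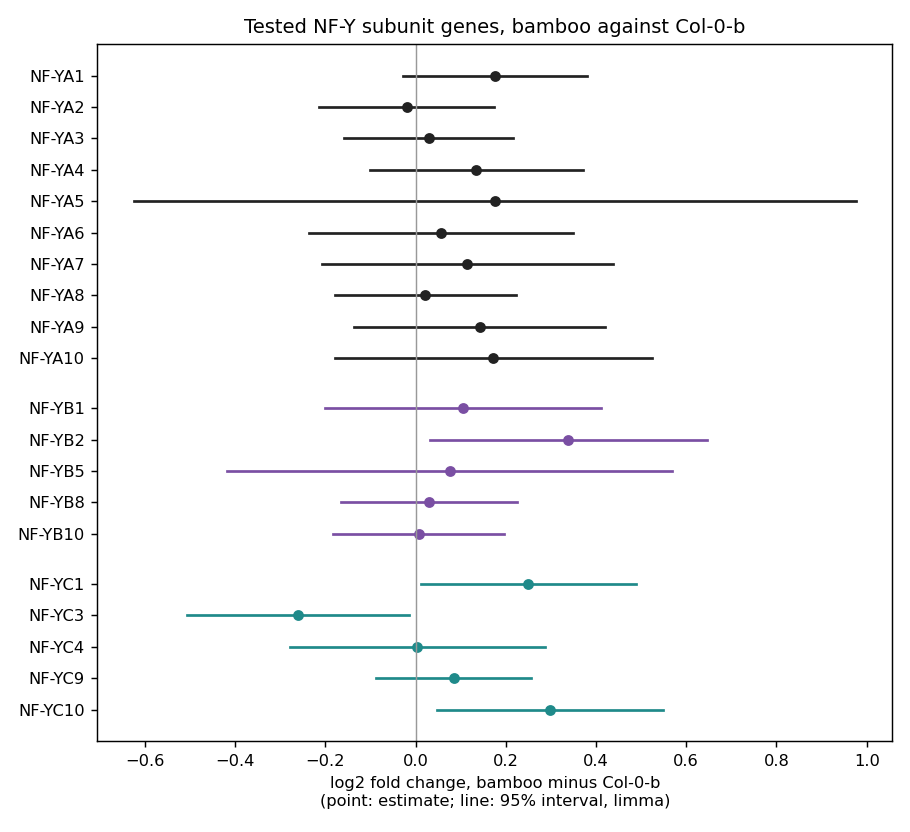
Log2 fold change (bamboo minus Col-0-b) of the tested NF-YA (10 genes, black), NF-YB (5, purple) and NF-YC (5, teal) genes, with the 95% interval of limma as a line and 0 as the vertical line. Every NF-YA interval includes 0, and that of NF-YA5, the gene with the fewest reads, is the widest (-0.63 to 0.98).

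Outside the NF-Y lists, the 3 genes whose levels over the 5 libraries were most like those of NF-YA2 were TBL10 (AT3G06080), a member of the trichome birefringence-like family, BPM5 (AT5G21010), a BTB-MATH protein, and AT1G28760. They were the closest of 17545 tested genes that varied at least as much as NF-YA2 (SD of 0.07 on the log2 scale), by the root-mean-square difference of log2 values from each gene's mean, which was 0.0095, 0.011 and 0.012. TBL10 had 338 and 325 normalized counts in bamboo, against 347, 346 and 309 in Col-0-b, with Col-0-b replicate 3 lowest as for NF-YA2. With 5 libraries and so small a range, likeness of this kind is a description only.

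In the gene table NF-YA5, NF-YA6 and NF-YA9 each overlap another annotated gene. The lncRNAs AT1G07943 and AT3G02825, which overlap NF-YA5 and NF-YA6, had 0 reads in all 8 libraries. AT1G54150 overlaps NF-YA5 and had 352 and 410 reads in bamboo, against 337, 287 and 315 in Col-0-b. AT3G20920 overlaps NF-YA9 and had 1289 and 1294 reads in bamboo, against 1074, 900 and 1171 in Col-0-b. No source used here names the strand setting of the counting, so the values of NF-YA5, with its few reads, and of NF-YA9 are uncertain where reads could be shared.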

How the data were processed

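Per the labels' protocols, stranded mRNA libraries of whole roots were sequenced as single-end reads. The submitters' processing notes name Trimmomatic, STAR 2.7.2a, featureCounts of Subread 1.6.5 and the build TAIR10, without a strand setting. The Col-0 table holds raw read counts, as the authors deposited them. For bamboo and Col-0-b the deposited values are a signal: each library's counts over its own size factor. Every value of the 5 signal columns was a whole multiple of a step (tolerance 0.01), so reads could be recovered. The WT columns were read as Col-0-b, since they stand beside bamboo, and the col columns as Col-0; another 6 columns with names that could not be tied to a line were not used, although their values for the 10 genes were seen when the table was opened.

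Testing took the genes that reached a normalized count of 10 in 2 or more libraries and used limma 3.58.1 in R 4.3.3 (trended, robust, group as the only term, pseudocount 1, Benjamini-Hochberg over all tested genes). Alternatives were TMM scaling, testing all genes with any value above 0, a pseudocount of 8, edgeR 4.0.16, DESeq2 1.42.0, a replicate term and leaving out each library. The test was tried on simulated counts first. CPM are counts scaled to the reads of all features. The plan was to divide levels by coding length; no lengths of that kind were at hand, so shares are of reads, and the rule to name the partner with the highest level per length was not applied. Named genes are all NF-YA genes, the partner with the lowest p in each list and the 3 genes most like NF-YA2; other genes were named after their values were seen. The members and lists were chosen with earlier results of these data known. Symbols come from a RefSeq table of assembly TAIR10.1, which names all 10 members; its coordinates are not given, since its build differs. No sequence is printed.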

Additional observations from a re-analysis of the deposited data

How the results depend on the processing

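No NF-YA gene was called in any of the 11 alternatives, and none had an unadjusted p under 0.05 except 3 without bamboo replicate 3; a fit with a single bamboo library borrows its spread from Col-0-b. The lowest adjusted p of the 10 genes without bamboo replicate 3 was 0.0678 (NF-YA4), and over the 11 alternatives the lowest adjusted p lay between 0.0678 and 0.83. Signs depended on bamboo replicate 2: without it the log2 fold change was -0.03 for NF-YA3, -0.05 for NF-YA4, -0.04 for NF-YA6, -0.15 for NF-YA7 and -0.01 for NF-YA9, against 0.09, 0.32, 0.15, 0.38 and 0.30 without bamboo replicate 3. Leaving out 1 library moved NF-YA2 between -0.07 and 0.01 (0.01 without Col-0-b replicate 2). Over all tested genes, 14 called higher and 13 lower became 46 and 29 where low genes were also tested (no low-value filter), and 186 and 121 with DESeq2, where the cause was not tested. Leaving out 1 library gave 6 to 894 higher and 4 to 1052 lower, the highest counts without bamboo replicate 3; the cause was not tested. Only 2 replicate numbers are shared, and the differences between them correlated at 0.08 across genes. This correlation cannot tell whether samples with the same number were grown or prepared together, and the labels do not say. With a replicate block 513 genes were called higher and 379 lower, and no NF-YA gene was (lowest adjusted p = 0.267). The share of NF-YA2 in the NF-YA reads ran from 15.2% to 17.0% in bamboo, 17.0% to 17.8% in Col-0-b and 11.9% to 14.0% in Col-0 when 1 library was left out, and that of the miR169 targets from 70.9% to 74.4%, 73.2% to 73.4% and 74.2% to 75.1%. Chosen after seeing the data, TMM factors over the 8 libraries left NF-YA2, NF-YA7 and NF-YA8 below and NF-YA1 and NF-YA3 above Col-0-b in Col-0. Shares per coding length could not be run. Depth limits NF-YA5, with 12 to 40 reads a library.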
